A study of Homo sapiens with 26 samples.

Results

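A set of 10 genes that sense double-stranded RNA or act on it were followed through mRNA-seq of 3 established human esophageal squamous cell carcinoma (ESCC) lines, KYSE180, TE6 and KYSE150. The members were chosen by symbol, and all 10 were present among the 26485 gene symbols of each of the 5 deposited tables: *DDX58* (now *RIGI*), *IFIH1*, *DHX58*, *TLR3*, *OAS1*, *OAS2*, *OAS3*, *OASL*, *EIF2AK2* and *ADAR*. The 26 libraries formed 11 groups. KYSE180 cells received a control siRNA (siCont) or an siRNA against BRDT (siBRDT) in one experiment (n = 3 each), and siCont or an siRNA against TP63 (siTP63) in another (n = 2 each). TE6 cells received siCont, siBRDT or siTP63 in a single experiment (n = 2 each), so both TE6 comparisons share their control libraries. KYSE150 cells received siCont or siTP63 (n = 2 each), or were transfected with a BRDT expression plasmid (BRDT-OE) or its control plasmid (n = 3 each). RNA of the siRNA groups was isolated 48 hours after transfection, and the time after plasmid transfection was not given. The control of every knock-down is itself an siRNA, and no group of cells without transfection was analysed here, so a response shared by all siRNAs is contained in the controls and cannot be told apart from the basal level. Nothing states that replicates came from separate cultures, and p-values therefore measure only the spread between these libraries, which may be technical.

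Double-stranded RNA is a hallmark of viral infection, and cells carry several proteins that bind it. RIG-I (from *DDX58*) and MDA5 (from *IFIH1*) are cytosolic helicases that signal through the adaptor MAVS to switch on interferon genes, LGP2 (from *DHX58*) is their relative without signalling domains, and TLR3 detects double-stranded RNA in endosomes. OAS1, OAS2 and OAS3 make short 2'-5' linked oligoadenylates that act as second messengers against viral RNA, whereas OASL lacks this activity and modulates RIG-I signalling. PKR (from *EIF2AK2*) phosphorylates the translation factor eIF2 alpha, and ADAR1 edits adenosines in double-stranded RNA and thereby keeps self RNA from being sensed. Most of these genes are themselves induced by interferon. Synthetic siRNAs are short double-stranded RNAs, which is why the siRNAs of the study are shown first.

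The study's supplement lists 1 control siRNA, 4 siRNAs against BRDT and 2 against TP63, each with 19 bases given. Which of them entered the sequenced libraries was not stated. Loss of a target cannot be told apart here from other effects of its siRNA. Sequences are given 5' to 3' as listed.
Non-targeting siRNA #5, matching no transcript in full: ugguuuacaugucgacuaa
BRDT #2, matching 15 transcripts of its target: caaaucaacuucaguaucu
BRDT #3, matching 9 of them: gaaaauggauaaccaagaa
BRDT #4, matching 8 of them: guagagagaacacuaauga
BRDT #18, matching 5 of them: gagauaaacuugggcgagu
TP63 #5, matching 5 transcripts of its target: caucaugucuggacuauuu
TP63 #8, matching 12 of them: cgacagucuuguacaauuu
Each BRDT siRNA matched in full only transcripts of *BRDT* in GENCODE release 44, each TP63 siRNA only transcripts of *TP63*, and the control siRNA no transcript. The longest run of bases that any of the 7 shared with a transcript of a member was 10, so none of them matched a member in full. GC content was 36.8% in the control siRNA, 31.6% to 47.4% in the BRDT siRNAs and 36.8% in both TP63 siRNAs, and the share of U was 36.8% in the control, 10.5% to 31.6% in the BRDT siRNAs and 36.8% to 42.1% in the TP63 siRNAs.

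The promoters are shown because interferon regulatory factors (IRFs) bind short GAAA repeats near the starts of interferon-stimulated genes. RefSeq promoter windows (GRCh38.p14, 250 bases before to 50 after the start) were found for 7 of the members, and *OAS2*, *OASL* and *DHX58* had no entry. The stretches below surround the match nearest the start, read along the strand of the gene, and capitals mark matches to AANNGAAA (an IRF element) on either strand.
*OAS1*, chr12:112906921-112906978, plus strand: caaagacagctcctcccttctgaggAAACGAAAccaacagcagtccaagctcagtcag
*OAS3*, chr12:112938439-112938496, plus strand: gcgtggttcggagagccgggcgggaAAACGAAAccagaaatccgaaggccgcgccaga
*DDX58*, chr9:32526300-32526357, minus strand: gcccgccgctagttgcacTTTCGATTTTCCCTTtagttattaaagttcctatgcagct
*IFIH1*, chr2:162318671-162318728, minus strand: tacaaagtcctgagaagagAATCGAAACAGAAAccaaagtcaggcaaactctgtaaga
*TLR3*, chr4:186069127-186069184, plus strand: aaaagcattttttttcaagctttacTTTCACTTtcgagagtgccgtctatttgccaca
*EIF2AK2*, chr2:37156952-37157009, minus strand: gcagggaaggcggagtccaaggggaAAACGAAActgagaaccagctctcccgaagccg
Of the 7 genes, 6 held at least 1 such match, against 22.8% of all 35116 promoter windows. The longer interferon-stimulated response element core GAAANNGAAA, which contains the IRF element, was found in *OAS3*, *IFIH1*, *TLR3* and *EIF2AK2* (4 of 7, against 3.57% of all windows). *ADAR* held neither motif in its 3 listed windows, which says only that these letters are not in these windows. A match describes the sequence and is not evidence of binding.

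*OAS1*, *OAS3* and *OAS2* lie side by side on the plus strand of chromosome 12 (hg38, GENCODE release 44: 112905856-112933219, 112938051-112976460 and 112978395-113011723), and *OASL* lies farther along on the minus strand (121017763-121039246). *DDX58* is on chromosome 9 (32455302-32526208), *IFIH1* and *EIF2AK2* on chromosome 2 (162267074-162318684 and 37099210-37157522), *DHX58* on chromosome 17 (42101404-42112714), *TLR3* on chromosome 4 (186068911-186088073) and *ADAR* on chromosome 1 (154581695-154628013). The library kit does not mark strand, so reads of a gene and its antisense partner cannot be told apart. This concerns the 3 neighbouring OAS genes, which overlap the long non-coding RNA gene ENSG00000257452 on the opposite strand, and *EIF2AK2*, which overlaps *GPATCH11* and *ARL14EPP1*. *DDX58* overlaps the protein-coding model ENSG00000288684 on its own strand. Values of these genes carry that uncertainty.

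Each library held 7582089 to 19372441 reads, recovered from the deposited values, and a count of 0 allows up to 3 reads, or 0.155 to 0.396 RPM (the usual scaling of reads to library size; counting error only). The values below are normalised read counts, that is, reads per gene after division by the size factor of the library, and each experiment was scaled on its own. The targeted genes went the way the labels say: BRDT lay between 1017 and 1136 in KYSE180 siCont and between 132 and 198 in siBRDT, in TE6 between 240.9 and 242 in siCont and between 46.6 and 55.0 in siBRDT. TP63 fell with siTP63 in KYSE180 (log2 fold change -1.70) and TE6 (-4.45), and lay between 695 and 729 in KYSE150 siCont and between 115 and 170 in siTP63 without passing the adjusted test (-2.34, limma adjusted p = 0.080). It also fell with siBRDT, in KYSE180 (-0.58) and TE6 (-1.15). The paper describes KYSE150 as lacking BRDT. Without being targeted, BRDT stood at 34.6 ± 37.2 (SD, n = 2) in KYSE150 siCont and 5.32 ± 7.53 (n = 2) in siTP63, with overlapping libraries. In the plasmid controls of KYSE150 it stood at 10.2 ± 5.07 (n = 3). All 9 squamous and epithelial markers were detected in every library. Of the 9 leukocyte markers, *IL3RA* had no read and *PTPRC* (CD45) at most 4 reads in any library. *LYZ* reached 32 reads (2.69 RPM), *CD14* 13 and *CD3E* 10, with 0 reads in 11, 3 and 5 libraries. The summed level of the 9 leukocyte markers was at most 5.05 RPM. The 3 endothelial markers summed to 1.36 to 2.09 RPM in KYSE180 siCont of the TP63 experiment and 11.3 to 12.1 in siTP63. They summed to 0.796 to 1.73 and 5.44 to 11.4 in KYSE150, and to 4.21 to 5.83 and 7.85 to 9.76 in TE6. *CDH5* had 0 reads in 7 of the 26 libraries and at most 174 (10.8 RPM). *VWF* had reads in every library, at most 173 (11.8 RPM). The 5 fibroblast markers summed to 36.0 to 39.6 RPM in KYSE180 siCont of the TP63 experiment and 68.5 to 79.8 in siTP63. Their highest sums were in the KYSE180 BRDT experiment, 83.6 to 92.8 in siCont and 91.6 to 105 in siBRDT. They summed to 9.38 to 10.4 in the plasmid controls and 4.40 to 5.21 with BRDT-OE. *DCN* had 0 reads in 17 libraries, whereas *COL1A1* had reads in every library, at most 1164 (94.3 RPM). The summed squamous markers moved with the knock-downs (TE6: 6134 to 6207 RPM in siCont, 3005 to 3300 in siBRDT, 1635 to 1738 in siTP63; KYSE180: 8903 to 9501 in siCont against 5887 to 6028 in siBRDT, and 8245 to 8606 against 5675 to 5758 in siTP63), and their part in the results below was not tested. In bulk RNA, fewer expressing cells and less RNA per cell cannot be told apart.

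Per transcript length, *ADAR* was the most abundant member in all 5 control groups, from 24.0 ± 3.79 (KYSE150 siCont, SD, n = 2) to 71.9 ± 3.88 RPM per kb (KYSE180 siCont of the BRDT experiment, n = 3), and in each group its lowest library was above the highest of the next gene. At the other end, *TLR3* was at or next to the bottom in 4 control groups, at 0.128 to 0.744 RPM per kb, and in KYSE150 siCont the lowest were *TLR3*, *DHX58* and *OAS2*, which did not separate (0.0529, 0.0461 and 0 RPM per kb). The order in between was not the same in every group. In TE6 siCont, *OASL*, *DHX58* and *OAS1* stood together at 8.63 ± 0.349, 8.34 ± 0.966 and 8.30 ± 0.850 RPM per kb (n = 2) with overlapping libraries, ahead of *OAS3* at 5.43 ± 0.450. In the plasmid control of KYSE150, *OAS3* and *OASL* followed *ADAR* at 19.7 ± 4.60 and 14.3 ± 5.53 RPM per kb (n = 3) and overlapped.

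**Figure D1:**
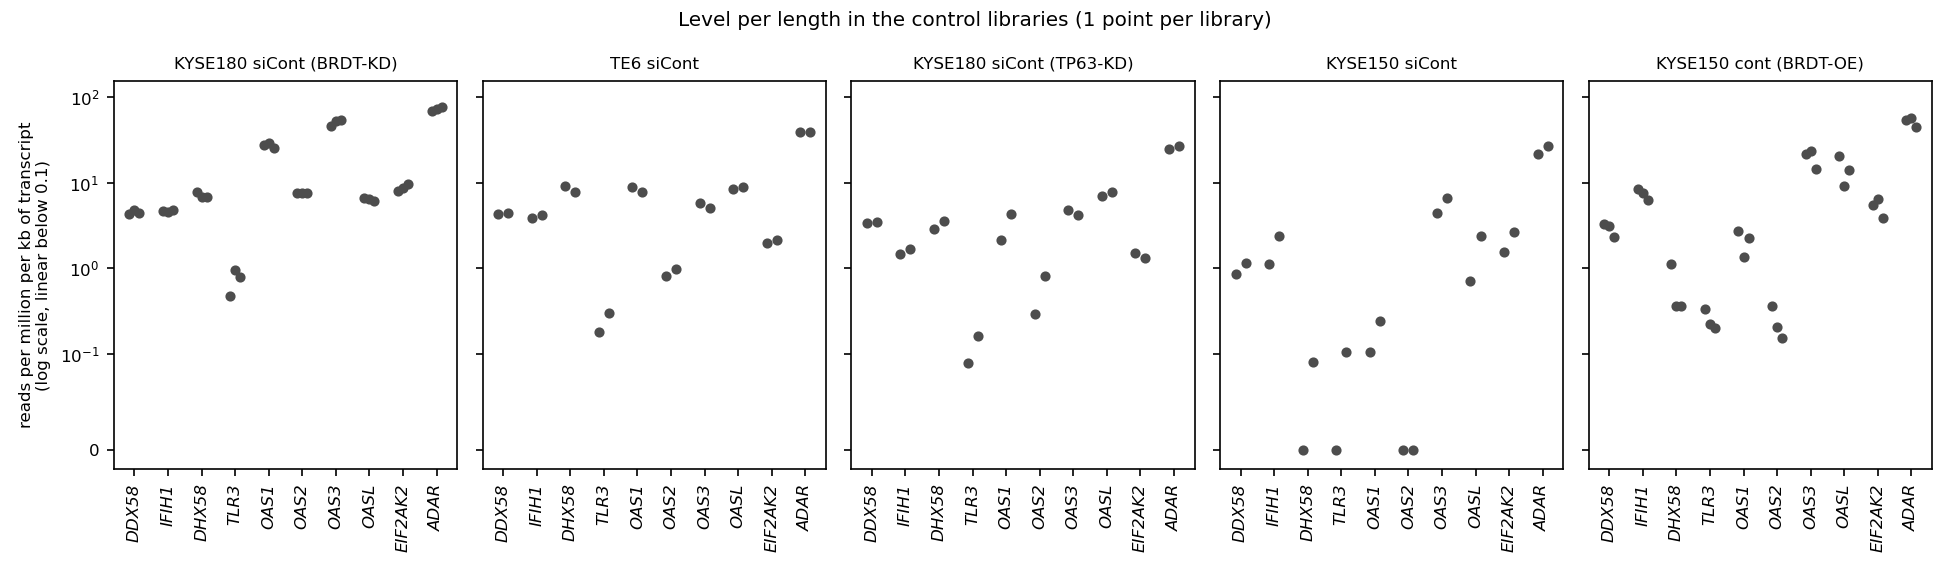
Level per transcript length (RPM per kb, log scale that is linear below 0.1) of the 10 genes in the control libraries of the 5 experiments, with 1 point per library. *ADAR* is the highest gene in every panel and *TLR3* or *OAS2* the lowest.

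The same line gave different levels in different experiments. *OAS3* stood at 50.5 ± 4.14 RPM per kb (n = 3) in the KYSE180 siCont libraries of the BRDT experiment and at 4.47 ± 0.381 (n = 2) in those of the TP63 experiment, and *OAS1* at 27.2 ± 1.72 and 3.21 ± 1.54. *OASL* went the other way by a small margin, with 6.34 ± 0.195 and 7.37 ± 0.675. In KYSE150, *OASL* had 14.3 ± 5.53 RPM per kb with the control plasmid and 1.56 ± 1.20 with siCont (n = 2). Tables were normalised separately, and the sources do not state whether the experiments were run together. The differences between experiments therefore cannot be told apart from batch, and in KYSE150 from the agent as well (RNAiMAX for siRNAs, electroporation for plasmids). These values carry no test.

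Knock-down of TP63 in KYSE180 was accompanied by a rise of the whole set. All 10 members were higher in both siTP63 libraries than in both controls. The share of all genes that separated in this way was not counted, here or in the other comparisons. A lack of overlap therefore only describes a gene. All 10 members were called (limma, Benjamini-Hochberg adjusted p below 0.05, log2 fold change reaching 0.5 either way). Of the 13924 genes tested, 23.6% were called up and 25.7% down. The median log2 fold change of the members was 1.81, against 0.00 for all genes.

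Among the sensors, *DDX58* rose from 274 and 267 normalised counts in siCont to 685 and 690 in siTP63, a log2 fold change of 1.34 ± 0.15 (SE, adjusted p = 3.5e-08). *IFIH1* went from 91.2 and 98.6 to 304 and 392 (1.85 ± 0.18, adjusted p = 5.1e-09) and *DHX58* from 127 and 153 to 578 and 554 (2.01 ± 0.16, adjusted p = 2.4e-10). The endosomal receptor *TLR3*, which started from 6 and 16 reads, rose from 9.44 and 16.4 to 52.2 and 69.9 (2.19 ± 0.34, adjusted p = 6.6e-06). None of the 4 sensors overlapped between the groups.

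*OAS1* and *OAS2* had the largest changes. *OAS1* had 59.8 and 116 normalised counts in siCont and 1298 and 1466 in siTP63, a 15.7-fold ratio of the means (log2 fold change 4.03 ± 0.20, adjusted p = 4.3e-14). *OAS2* had 23.6 and 62.6 against 615 and 832, a 16.8-fold ratio (4.18 ± 0.27, adjusted p = 3.7e-12). As a ratio, the 2 controls of each gene differed more than the 2 treated libraries, and leaving out 1 library at a time gave log2 fold changes of 3.56 to 4.50 for *OAS1* and 3.49 to 4.86 for *OAS2*, the lowest and highest for *OAS2* being those without siCont replicate 1 and without siCont replicate 2. *OAS3*, with the same neighbourhood on chromosome 12 but a higher starting level, went from 541 and 459 to 1427 and 2005 (1.76 ± 0.16, adjusted p = 1.2e-09). The member without synthetase activity, *OASL*, went from 390 and 425 to 999 and 917 (1.23 ± 0.14, adjusted p = 9.1e-08).

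The genes of the kinase PKR and of the editing enzyme had the smallest log2 fold changes, that of *EIF2AK2* being close to that of *OASL*. *EIF2AK2* had 264 and 220 normalised counts in siCont and 479 and 655 in siTP63 (1.21 ± 0.17, adjusted p = 1.2e-06). *ADAR*, the most abundant member, rose from 2830 and 2899 to 5268 and 5852 (0.95 ± 0.14, adjusted p = 3.9e-06). Scaling the libraries to equal upper quartiles moved the median of all genes to 0.22 in this comparison and the split of calls to 4662 up and 2554 down (64.6% up, against 47.9%). All 10 members were called under both scalings.

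In TE6, a subset of the members was higher with siTP63. In all, 5 members were called up and none down among 10 tested, where 18.3% of 13333 genes were called up and 20.6% down, and the median of the members was 0.98 against -0.01 for all genes. *OAS1* rose from 164 and 141 normalised counts in siCont to 744 and 852 in siTP63 (log2 fold change 2.38 ± 0.13, adjusted p = 7.5e-08). *OAS2* rose from 43.1 and 51.7 to 161 and 182 (1.84 ± 0.17, adjusted p = 3.2e-06).

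The 3 cytosolic helicases were the other called genes. *DDX58* rose from 227 and 232 to 821 and 950 (1.94 ± 0.12, adjusted p = 1.5e-07), *DHX58* from 265 and 223 to 705 and 694 (1.52 ± 0.13, adjusted p = 2.2e-06) and *IFIH1* from 156 and 168 to 332 and 380 (1.13 ± 0.13, adjusted p = 2.5e-05). The controls and treated libraries of these genes were far apart. *OASL* did not follow them: it had 310 and 326 normalised counts in siCont and 336 and 331 in siTP63 (0.07 ± 0.12, adjusted p = 0.66). *OAS3* (0.49 ± 0.15, adjusted p = 0.014) and *ADAR* (0.38 ± 0.10, adjusted p = 0.0062) passed the p threshold with less than the required fold, and *OAS3* was called up by DESeq2 (0.50, adjusted p = 0.0096), with upper quartile scaling (0.57, 0.048), without siCont replicate 1 (0.58, 0.043) and without siTP63 replicate 1 (0.60, 0.038). *TLR3* (0.84 ± 0.45, adjusted p = 0.14) and *EIF2AK2* (0.15 ± 0.14, adjusted p = 0.39) did not pass.

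With siBRDT in TE6, measured against the same 2 control libraries, 6 members were called up and 1 down. Of all genes, 15.6% were called up and 18.1% down (median of the members 1.50, of all genes -0.04). *OASL* had the largest change of any member here, from 310 and 326 normalised counts to 2343 and 2801 in siBRDT, an 8.08-fold ratio (log2 fold change 3.005 ± 0.12, adjusted p = 1.5e-08). *OAS2* rose from 43.1 and 51.7 to 340 and 338 (2.82 ± 0.17, adjusted p = 4.5e-07) and *OAS1* from 164 and 141 to 659 and 707 (2.16 ± 0.13, adjusted p = 4.8e-07). All treated libraries of these genes were above all controls.

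The helicases rose as well. *DDX58* reached 835 and 799 normalised counts from 227 and 232 (1.83 ± 0.12, adjusted p = 8.2e-07), *IFIH1* 487 and 492 from 156 and 168 (1.59 ± 0.13, adjusted p = 4.5e-06), and *DHX58* 596 and 701 from 265 and 223 (1.41 ± 0.13, adjusted p = 9e-06). *OAS3* (0.37 ± 0.15, adjusted p = 0.056), *EIF2AK2* (0.04 ± 0.14, adjusted p = 0.83) and *ADAR* (0.27 ± 0.10, adjusted p = 0.040) were not called.

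*TLR3* was the one member called down in TE6 siBRDT. It had 12.3 and 20.7 normalised counts (14 and 24 reads) in siCont and 4.32 and 8.36 (4 and 7 reads) in siBRDT (log2 fold change -1.27 ± 0.45, adjusted p = 0.034). The call was lost without siCont replicate 1 (-1.62, adjusted p = 0.052), without siCont replicate 2 (-0.92, adjusted p = 0.27) and without siBRDT replicate 1 (-0.86, adjusted p = 0.11) and in 4 other alternatives, so each of 3 libraries decides it. Upper quartile scaling moved the median of all genes to 0.24 and the split of calls from 2074 up and 2419 down (46.2% up) to 2719 up and 588 down (82.2% up), and under it *TLR3* was not called and *OAS3* was called up (7 members up, 0 down).

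**Figure D2:**
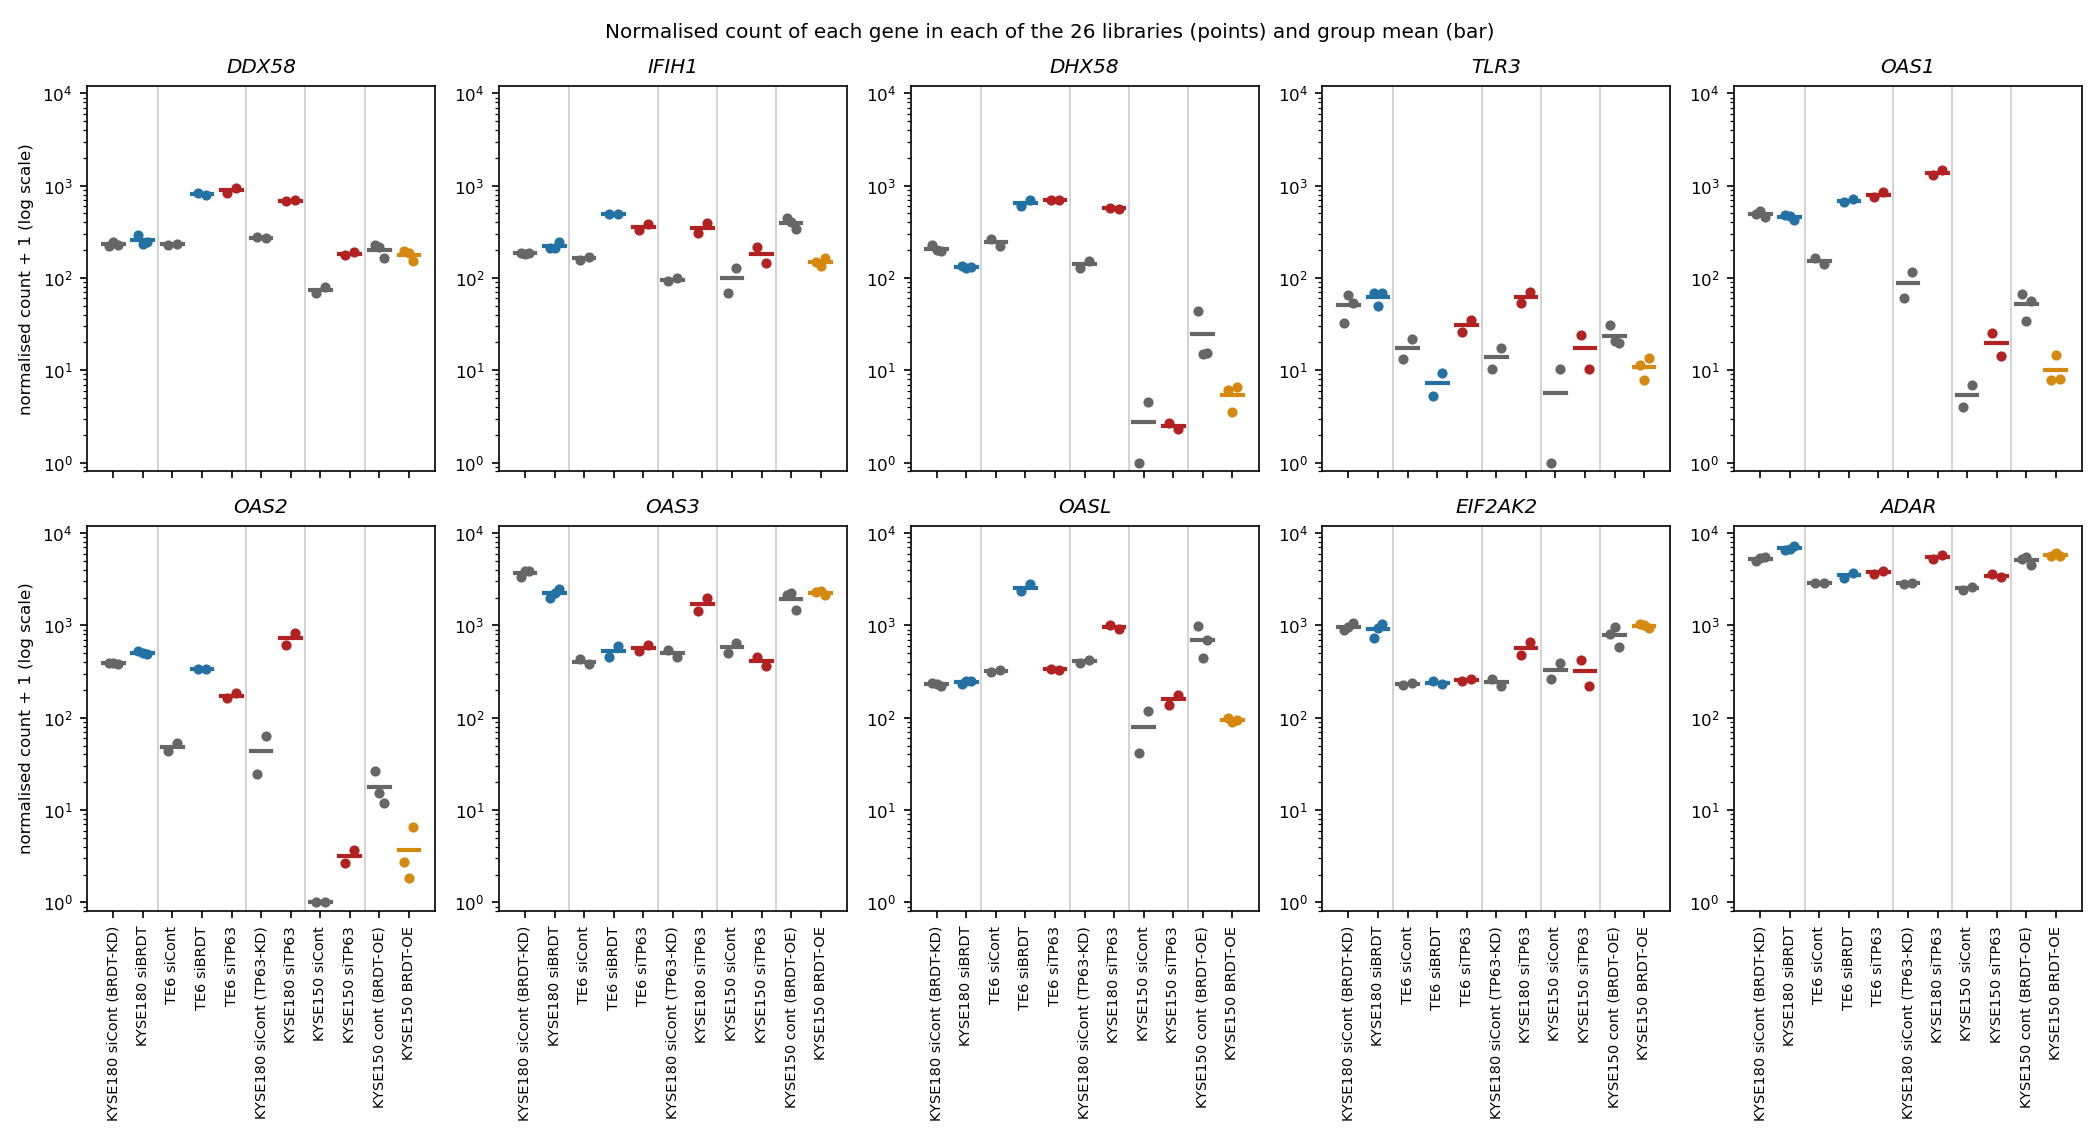
Normalised count plus 1 (log axis) of each gene in each of the 26 libraries, with control groups in grey, siBRDT in blue, siTP63 in red and BRDT-OE in orange; the bar is the group mean and vertical lines separate the experiments. *OASL* in TE6 stands at 2343 and 2801 with siBRDT but at 336 and 331 with siTP63, and every gene is higher in KYSE180 siTP63 than in its controls.

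BRDT knock-down in KYSE180 gave no called rise in the set. With 3 libraries a group, no member was called up and 2 were called down, where 14.5% of 13589 genes were called up and 15.8% down. Out of 10 members tested, both counts are near these shares. The median of the members was 0.10 against -0.01 for all genes. *OAS3* fell from 3364, 3877 and 3864 normalised counts to 1996, 2267 and 2484 (log2 fold change -0.72 ± 0.08, adjusted p = 2.8e-06). *DHX58* fell from 224, 197 and 195 to 133, 127 and 129 (-0.66 ± 0.10, adjusted p = 8e-05). Neither gene overlapped between the groups, and both kept their call in all 12 alternative fits.

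In all, 3 members were above the controls in every siBRDT library but under the required fold: *OAS2* (0.37 ± 0.07, adjusted p = 0.00059), *ADAR* (0.38 ± 0.06, adjusted p = 0.00014) and *IFIH1* (0.27 ± 0.10, adjusted p = 0.031). Without a fold-change limit these 3 of 10 members would be called up. So would 3893 of the 13589 genes tested, a share near that of the members. *OAS1* had 491, 528 and 458 normalised counts in siCont and 479, 467 and 424 in siBRDT (-0.11 ± 0.08, adjusted p = 0.28), and *OASL* 238, 232 and 221 against 229, 248 and 246 (0.07 ± 0.09, adjusted p = 0.56). The groups overlapped for both genes, as they did for *DDX58* (0.14 ± 0.10, adjusted p = 0.26), *TLR3* (0.34 ± 0.23, adjusted p = 0.22) and *EIF2AK2* (-0.12 ± 0.11, adjusted p = 0.37).

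TP63 knock-down in KYSE150 yielded no call, for the members or for any other gene: 0 of 8 members tested, and 0.0% of 12335 genes called up and 0.0% down by limma. At an unadjusted p under 0.05, limma listed 1069 genes higher and 1125 lower, edgeR also called 0 genes (1140 higher and 1047 lower unadjusted), and DESeq2 called 202 up and 259 down. *DDX58* had 68.3 and 78.9 normalised counts in siCont and 175 and 188 in siTP63 (log2 fold change 1.29 ± 0.25, adjusted p = 0.11), and it was the only member that DESeq2 called (adjusted p = 0.033).

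The other members varied more between the 2 libraries of a group. *OAS1* had 2.97 and 5.89 normalised counts (2 and 5 reads) in siCont and 24.1 and 13.3 (29 and 10 reads) in siTP63 (1.86 ± 0.57, adjusted p = 0.19). *OASL* had 40.1 and 117 against 137 and 177 (1.17 ± 0.52, adjusted p = 0.31), and *IFIH1* 68.3 and 127 against 218 and 142 (0.91 ± 0.39, adjusted p = 0.30). Neither gene overlapped between the groups, although the higher siCont library came close to the lower siTP63 library in both.

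*TLR3* had 0 and 8 reads in siCont and 28 and 7 in siTP63 (2.29 ± 1.18, adjusted p = 0.37), so the groups overlapped and siCont replicate 1 had no read. Leaving out 1 library at a time gave 0.60 to 3.98 for *TLR3*, the highest without siCont replicate 2 (adjusted p = 0.00028), and 0.41 to 1.93 for *OASL*, the highest also without siCont replicate 2 (adjusted p = 0.014). *OAS3* had 505 and 647 normalised counts against 456 and 362 (-0.49 ± 0.24, adjusted p = 0.34), *ADAR* 2417 and 2608 against 3567 and 3339 (0.46 ± 0.20, adjusted p = 0.30) and *EIF2AK2* 263 and 392 against 417 and 220 (-0.08 ± 0.38, adjusted p = 0.93). *OAS2* (0 and 0 reads, then 2 and 2) and *DHX58* (0 and 3 reads, then 2 and 1) stayed under the mean value of 10 that a gene needed to be tested, and a difference in them was not detectable at this depth.

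In KYSE150 with the BRDT plasmid, where BRDT itself rose from between 6.58 and 16.0 to between 15870 and 17540 normalised counts, members moved down. Of the 9 tested, 5 were called down and none up, where 10.5% of 12765 genes were called up and 16.0% down, and the median of the members was -1.13 against 0.02 for all genes. *OASL* fell most, from 975, 439 and 686 normalised counts to 98.0, 88.8 and 94.2 (log2 fold change -2.81 ± 0.23, adjusted p = 1e-05), and all treated libraries were far below all controls. *OAS1* fell from 66.0, 33.0 and 55.9 to 6.88, 13.5 and 7.03 (-2.38 ± 0.34, adjusted p = 0.00027).

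Of the helicases, *IFIH1* fell from 442, 401 and 339 to 148, 134 and 162 (-1.40 ± 0.12, adjusted p = 1.7e-05) and *DHX58* from 43.4, 14.1 and 14.3 to 5.16, 2.54 and 5.62 (-2.05 ± 0.48, adjusted p = 0.0050). *DDX58* was not called and its groups overlapped, with 227, 215 and 162 against 194, 184 and 150 (-0.18 ± 0.15, adjusted p = 0.33). *TLR3* fell from 29.8, 19.8 and 18.6 to 10.3, 6.77 and 12.7 (-1.13 ± 0.33, adjusted p = 0.015). That call was lost without control replicate 1 (-0.93, adjusted p = 0.072) and without BRDT-OE replicate 2 (-0.90, adjusted p = 0.057), and without control replicate 1 *DHX58* was under the value minimum, which left 3 members called.

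*OAS2* had 28, 15 and 10 reads in the plasmid controls and 2, 1 and 4 with BRDT-OE, without overlap, and its mean was below the minimum for a test. *OAS3* (0.24 ± 0.14, adjusted p = 0.17), *EIF2AK2* (0.37 ± 0.15, adjusted p = 0.058) and *ADAR* (0.20 ± 0.09, adjusted p = 0.068) were not called. Upper quartile scaling changed the split of all calls from 39.7% to 28.4% up and left the same count of 5 members down.

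**Figure D3:**
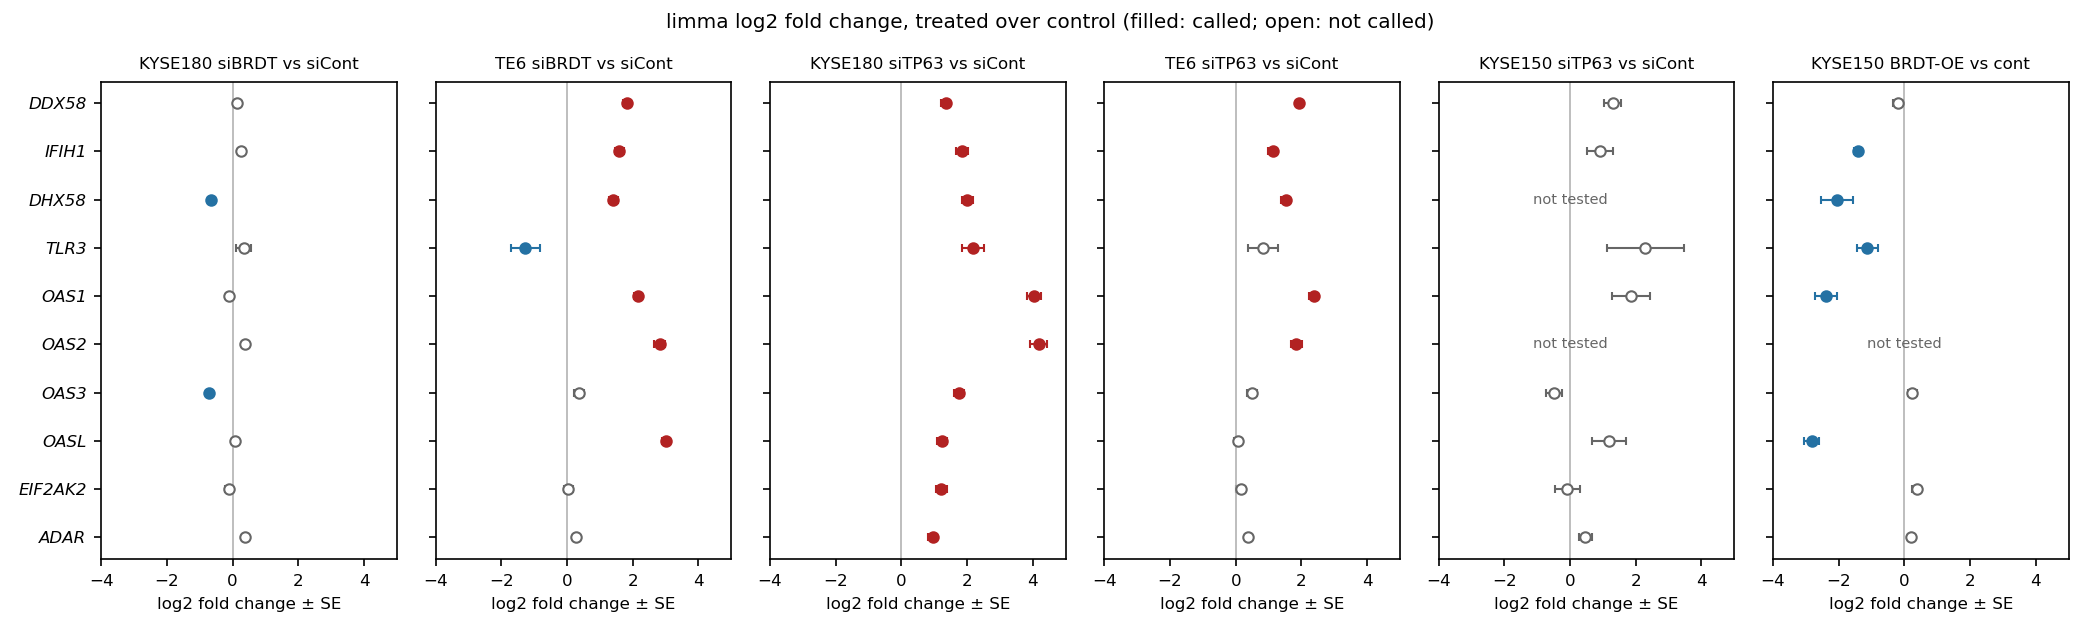
log2 fold change of each member (treated over control, limma, bars are SE) in the 6 comparisons; filled points were called (red up, blue down), open points were not, and genes below the value minimum are marked as not tested. All 10 points are filled and to the right in KYSE180 siTP63, 6 of 10 in TE6 siBRDT, and 5 of 9 are filled and to the left in KYSE150 BRDT-OE.

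The differences between lines and between targets were tested directly as contrasts of log2 fold changes (adjusted p under 0.05, no fold limit). Contrasts across experiments used a single estimate of the spread per gene over all 26 libraries. This can understate the SE where the KYSE150 siTP63 experiment varied more. The siBRDT effect differed between TE6 and KYSE180 for 7 members, where 22.9% of 13931 genes did. It was larger in TE6 for *OASL* (by 2.94 ± 0.41 on the log2 scale, adjusted p = 8.3e-05), *OAS2* (2.44 ± 0.57, adjusted p = 0.0056), *OAS1* (2.26 ± 0.44, adjusted p = 0.0016), *DHX58* (2.06 ± 0.63, adjusted p = 0.023), *DDX58* (1.69 ± 0.20, adjusted p = 1.5e-05), *IFIH1* (1.32 ± 0.29, adjusted p = 0.0032) and *OAS3* (1.09 ± 0.25, adjusted p = 0.0050). *TLR3*, *EIF2AK2* and *ADAR* did not pass. The *DHX58* call was lost with a pseudocount of 0.1 (adjusted p = 0.22), without TE6 siBRDT replicate 1 (0.050) or 2 (0.065) and without TE6 siCont replicate 2 (0.087).

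For siTP63, TE6 and KYSE180 differed in 7 members (49.4% of genes). The effect was smaller in TE6 for *OAS2* (-2.34 ± 0.63), *OAS1* (-1.66 ± 0.49), *OAS3* (-1.27 ± 0.27), *OASL* (-1.16 ± 0.45), *EIF2AK2* (-1.06 ± 0.35) and *ADAR* (-0.58 ± 0.15), with adjusted p between 0.00077 and 0.035, and larger in TE6 for *DDX58* (0.60 ± 0.22, adjusted p = 0.031). Leaving out 1 library at a time left 4 to 6 members called. The *OASL* call was lost in all 8 of these fits and without a filter (adjusted p 0.057 to 0.091), and the *DDX58* call in 7 of them and with upper quartile scaling (0.052 to 0.18). *EIF2AK2* was lost without KYSE180 siCont replicate 2 (0.062) or siTP63 replicate 2 (0.092), and *OAS1* without KYSE180 siCont replicate 1 (0.067). KYSE150 and KYSE180 differed in 6 members (29.2% of genes), *OAS2* among them with at most 2 reads in KYSE150, the lowest p being that of *OAS3* (-2.25 ± 0.27, adjusted p = 1.1e-05), and KYSE150 and TE6 in 2 (22.0% of genes), *OAS3* (-0.98 ± 0.27, adjusted p = 0.015) and *DDX58* (-0.65 ± 0.22, adjusted p = 0.042). Of the former, *OAS1* was lost with edgeR (adjusted p = 0.089), *IFIH1* with the replicate block (0.082) and without KYSE150 siCont replicate 2, KYSE150 siTP63 replicate 2, KYSE180 siCont replicate 1 or KYSE180 siTP63 replicate 2 (0.082 to 0.22). *EIF2AK2* (0.060 to 0.075) and *ADAR* (0.061 to 0.089) were lost without KYSE150 siCont replicate 2, KYSE150 siTP63 replicate 2 or KYSE180 siTP63 replicate 2. The KYSE150 minus TE6 call of *OAS3* was lost without TE6 siCont replicate 2 (0.068) or TE6 siTP63 replicate 2 (0.066), and that of *DDX58* in 5 of these fits, and 2 of 10 members is near the share of all genes.

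Within KYSE180, where the 2 knock-downs came from separate experiments, the siTP63 effect exceeded the siBRDT effect in 9 members (51.9% of genes differed), from 0.58 ± 0.14 for *ADAR* (adjusted p = 0.0013) to 4.14 ± 0.44 for *OAS1* (adjusted p = 1.8e-07), and *TLR3* missed the threshold (1.85 ± 0.87, adjusted p = 0.080). The controls started lower in the TP63 experiment for all members but *OASL* (*OAS1* 3.21 against 27.2 RPM per kb, *OAS3* 4.47 against 50.5). With siTP63, *OAS3* stood at 22.2 RPM per kb. Target and experiment cannot be told apart in this contrast. The *OASL* call was lost without KYSE180 siCont replicate 1 of the TP63 experiment (0.067) or siTP63 replicate 1 (0.063), and the *DHX58* call with a pseudocount of 0.1 (0.069). Within TE6 the 2 knock-downs could be compared library against library. Here 4 of 10 members differed, which is near the share of all genes (39.2%). *OASL* was lower with siTP63 than with siBRDT by 2.94 ± 0.12 on the log2 scale (adjusted p = 1e-08), *OAS2* by 0.98 ± 0.17 (adjusted p = 0.00068) and *IFIH1* by 0.46 ± 0.13 (adjusted p = 0.016), while *TLR3* was higher by 2.10 ± 0.45 (adjusted p = 0.0027). The *IFIH1* call was lost with upper quartile scaling (adjusted p = 0.058) and without siTP63 replicate 1 (0.17) or 2 (0.054). For *DDX58* the difference was 0.11 (95% interval -0.15 to 0.37) and for *OAS1* 0.22 (-0.06 to 0.51).

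Genes that work with the members did not move as one block. Of 26 pathway partners (such as the MAVS branch, Dicer partners, PKR targets and IRFs), 23 to 25 were tested in each comparison, and their median log2 fold change stayed between -0.15 and 0.06. In TE6 siBRDT 5 of 25 tested rose and 4 fell, near the shares of all genes (15.6% up, 18.1% down). The rises were led by *IRF7* (2.25 ± 0.15), an interferon-induced amplifier of interferon transcription, *ATF4* (1.243 ± 0.09), the transcription factor translated when eIF2 alpha is phosphorylated, and *IRF3* (1.01 ± 0.11). The falls were *TBK1* (-0.78 ± 0.12), the kinase of IRF3, *DHX9* (-0.65 ± 0.10), *DICER1* (-0.51 ± 0.15), which cuts double-stranded RNA, and *ABCE1*. In TE6 siTP63 8 of 25 tested rose and 8 fell, where 18.3% of all genes were called up and 20.6% down. The rises were led by *IRF7* (2.16 ± 0.15), *ATF4* (1.74 ± 0.09) and *PPP1R15A* (1.08 ± 0.12), a phosphatase subunit for eIF2 alpha. The falls were led by *DICER1* (-1.56 ± 0.15), *ABCE1* (-1.15 ± 0.13), a ribosome recycling factor, and *PDE12* (-1.02 ± 0.19), which degrades 2'-5' oligoadenylates.

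In KYSE180 siTP63 4 of 24 partners tested rose and 5 fell, smaller shares than those of all genes (23.6% up, 25.7% down). Among those that rose were *TRIM25* (1.06 ± 0.14), a ubiquitin ligase for RIG-I, and *PPP1R15A* (0.66 ± 0.14), and *IRF3* (-0.98 ± 0.16), *TRAF3* (-0.90 ± 0.17) and *EIF2S1* (-0.90 ± 0.14), which encodes eIF2 alpha, fell most. *IRF3* therefore fell in KYSE180 siTP63 and rose in both TE6 comparisons. In KYSE180 siBRDT *ATF4* (0.77 ± 0.07) and *PDE12* (0.62 ± 0.08) rose and *RNF135* (-0.57 ± 0.10) fell. These are smaller shares of the 25 tested than those of all genes (14.5% up, 15.8% down). In KYSE150 BRDT-OE 7 of 24 tested rose (10.5% of all genes), led by *PDE12* (0.75 ± 0.07), *DHX9* (0.70 ± 0.08) and *PNPT1* (0.63 ± 0.07). The 2 that fell (16.0% of all genes) were *PPP1R15A* (-0.85 ± 0.07) and *NLRX1* (-0.61 ± 0.08). None was called in KYSE150 siTP63.

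Interferon genes other than *IFNE* were at the edge of detection. *IFNB1* had at most 2 reads in any library, in TE6 siBRDT, and *IFNL1* had 10 and 17 reads there, 2 and 3 in TE6 siCont and at most 8 in TE6 siTP63. Only 4 to 6 of the 14 ligand, chemokine and receptor genes passed the value minimum. The chemokine *CCL5*, induced by RNA sensing and by interferon, rose in TE6 siBRDT (16.4 to 18.5 in siCont, 118 to 124 in siBRDT, log2 fold change 2.73 ± 0.28) and in KYSE180 siTP63 (1.68 ± 0.34) and fell in KYSE150 BRDT-OE (from 132 to 186 in the controls to between 4.23 and 11.2, -4.25 ± 0.30). *IFNE*, itself an interferon gene, had at most 60 reads in any library and 0 reads in 6 libraries. It rose in KYSE180 siTP63 (1.03 ± 0.32). Of the receptors, *IFNAR2* fell in KYSE180 siBRDT (-0.84 ± 0.15) and siTP63 (-0.60 ± 0.21), *IL10RB* rose in TE6 siTP63 (0.57 ± 0.13) and fell in BRDT-OE (-0.72 ± 0.13), and *IFNAR1* rose in BRDT-OE (0.55 ± 0.09).

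A list of 16 interferon-stimulated genes outside the set was read in the same way. All 16 rose in KYSE180 siTP63 (median 2.71), led by *XAF1* (6.14 ± 0.30, from 2 and 8 reads in siCont), *IFI44L* (4.95 ± 0.20) and *RSAD2* (3.58 ± 0.45, from 2 and 4 reads). In TE6, 13 of 14 tested rose with siBRDT (median 1.72), *ISG15* by 4.43 ± 0.18, *IFI6* by 3.67 ± 0.17 and *IFIT3* by 3.23 ± 0.14, and 9 of 14 with siTP63 (median 1.26), *IFI6* by 3.90 ± 0.17, *ISG15* by 2.95 ± 0.18 and *IFI44L* by 2.40 ± 0.13. In BRDT-OE 10 of 13 fell (median -1.50), led by *IFIT1* (-3.47 ± 0.18), *IFIT2* (-3.17 ± 0.16) and *HERC5* (-3.08 ± 0.27). KYSE180 siBRDT had 3 up, *IFIT2* (0.86 ± 0.12), *IFIT3* (0.86 ± 0.11) and *MX2* (0.79 ± 0.16), and *IFI44* down (-0.62 ± 0.07) among 15 tested. There 14.5% of all genes were called up and 15.8% down. KYSE150 siTP63 had none called among 11. The shares of all genes called in each comparison are those given with the members above. The lists were chosen with these data known and their counts are a description.

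**Figure D4:**
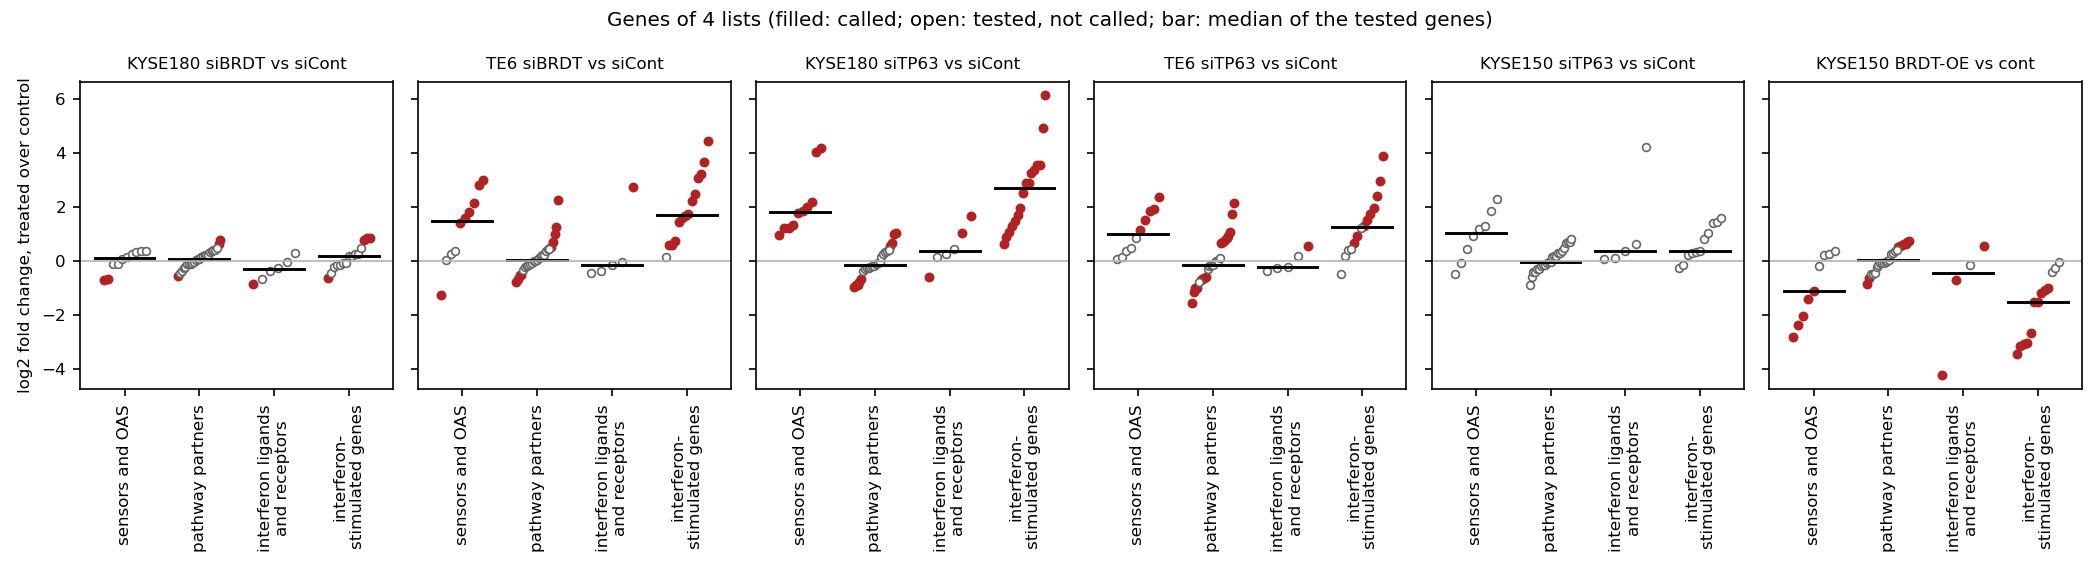
log2 fold change of each tested gene of 4 lists in the 6 comparisons; filled points were called in either direction, open points were not, and bars are the medians of the tested genes. Pathway partners scatter around 0 in every panel, while the members and the interferon-stimulated genes have medians of 1.81 and 2.71 in KYSE180 siTP63 and of -1.13 and -1.50 in KYSE150 BRDT-OE.

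To find genes with a like pattern, the log2 value of each gene minus the mean of the controls of its own experiment was correlated over the 26 libraries with the mean of the same quantity over the 8 members that had a mean value of at least 10 in all 5 tables. Among 11329 other genes the highest Pearson correlations were those of *PARP9* (0.97), *DTX3L* (0.95), *POU6F1* (0.95), *IFIT3* (0.94) and *TRANK1* (0.94). By Spearman's correlation, 3 of these 5 (*IFIT3*, *POU6F1* and *TRANK1*) were again among the top 5. Of the members, *OAS1* (0.98) and *IFIH1* (0.97) were closest to the mean they helped to form, and *EIF2AK2* (0.45) and *OAS3* (0.54) farthest. Libraries of one group and the shared TE6 controls are not independent points, so these values describe likeness only.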

How the data were processed

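RNA of 26 libraries was sequenced by the authors and aligned to hg38 with STAR 2.6.0, counted with HTSeq 0.11.2 and scaled with DESeq2 1.24.0 (versions per the submitters' processing notes). The annotation and the strand setting of the counting were not given in the sources used here. The deposited values are a signal unit, gene counts divided by the size factor of the library, in 5 tables scaled separately. Whole reads were recovered from 100% of the values (tolerance 0.01), and replicate correlations were 0.975 to 0.995. The lowest was that of the TE6 siBRDT libraries, and the next lowest was 0.989 in KYSE150 siTP63.

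Each comparison was fitted in its own table with limma 3.58.1 (R 4.3.3, lmFit and eBayes with trend) on log2(value + 1), which understates the change of low genes. Genes with a mean below 10 across the fitted libraries were left out, p-values were adjusted over all genes by Benjamini-Hochberg, and a gene was called where the adjusted p was below 0.05 and the log2 fold change reached 0.5 either way. The 3 TE6 groups were fitted together. Differences between lines came from a joint fit of 26 libraries with 11 group means, without a fold limit. That fit shares the spread of a gene across experiments. For *EIF2AK2* the SE of the siTP63 effect was 0.38 in KYSE150 alone and 0.35 for its difference from KYSE180. edgeR 4.0.16 and DESeq2 1.42.0 were run on the recovered reads as alternatives, beside a pseudocount of 0.1, no filter, upper quartile scaling, no fold limit, replicate blocks and leaving out each library. The fits were tested on simulated data. Same-numbered libraries of the 2 arms correlated at -0.703 to 0.178 after removing group means, so the numbers were not taken to pair samples.

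The members and gene lists were chosen with earlier results of these data known. All members were named, and of each other list at most the 3 called genes with the largest change in each direction, apart from items not reported here. *ABCE1* in TE6 siBRDT was named after its value was seen, as the last of 4. Lengths are those of GENCODE release 44 canonical transcripts. Python 3.11.15 was used for summaries.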

Additional observations from a re-analysis of the deposited data

Results flagged for a closer look

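Members whose response to the same knock-down differed between lines, by the direct test of the difference in the joint limma fit (adjusted over 13931 genes), are collected here with their values. For siBRDT, TE6 minus KYSE180, these were *OAS1* (2.265, adjusted p = 0.0016), *OAS2* (2.445, 0.0056), *OAS3* (1.088, 0.0050), *OASL* (2.939, 8.3e-05), *DDX58* (1.687, 1.5e-05), *IFIH1* (1.324, 0.0032) and *DHX58* (2.065, 0.023). The *DHX58* call was lost with a pseudocount of 0.1 (0.22). For siTP63, TE6 minus KYSE180, they were *OAS1* (-1.655, adjusted p = 0.0077), *OAS2* (-2.34, 0.0041), *OAS3* (-1.271, 0.00077), *OASL* (-1.162, 0.035), *DDX58* (0.597, 0.031), *EIF2AK2* (-1.063, 0.016) and *ADAR* (-0.5766, 0.0031), of which *OASL* lost its call in all 8 fits without 1 library and *DDX58* in 7.

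For siTP63, KYSE150 minus KYSE180, they were *OAS1* (-2.175, adjusted p = 0.0026), *OAS2* (-2.536, 0.0051), *OAS3* (-2.252, 1.1e-05), *IFIH1* (-0.9421, 0.028), *EIF2AK2* (-1.297, 0.0090) and *ADAR* (-0.4958, 0.017). The *OAS2* value rests on at most 2 reads a library in KYSE150, and its sign turned with a smaller pseudocount. *OAS1* lost its call with edgeR (0.089), *IFIH1* with the replicate block (0.082), and *IFIH1*, *EIF2AK2* and *ADAR* without single libraries. For siTP63, KYSE150 minus TE6, they were *OAS3* (-0.9804, adjusted p = 0.015) and *DDX58* (-0.6476, 0.042). The lines were compared across separate experiments, so line and experiment cannot be told apart.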

How the results depend on the processing

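In the 6 comparisons of treated with control libraries, called members kept their call under every alternative in which they were tested, except *TLR3* in TE6 siBRDT (kept in 4 of 11) and in BRDT-OE (10 of 12). Without a fold limit, KYSE180 siBRDT had 3 members up and 3893 genes up and 4044 down, and BRDT-OE 3326 and 3195 genes. In TE6 siBRDT, 0 members were down with DESeq2, without a filter, with only the 2 groups compared and with upper quartile scaling, which left 588 genes down there and 1604 in TE6 siTP63. In KYSE150 siTP63, DESeq2 called 1 member up and 202 genes up and 259 down, and limma without a filter called 27 and 18 genes. With the replicate block limma called 89 and 48 genes and 0 members there, and the block changed no count of called members within the 6 comparisons. A crossed pairing in limma was chosen after seeing the data, because same-numbered libraries correlated at -0.703. It called 5 members up and 1626 genes up and 1774 down. Among the differences, whose lost calls stand with their values above, the block took KYSE150 minus KYSE180 from 6 to 5 members, and KYSE150 minus TE6 went from 2 to 1 under no filter, the replicate block and upper quartile scaling. Signs turned for *EIF2AK2* in KYSE150 (0.0188, upper quartile), *ADAR* in siBRDT TE6 minus KYSE180 (0.11, upper quartile), and in KYSE150 minus KYSE180 for *OAS2* (0.0089 with edgeR, 0.25 with a pseudocount of 0.1) and *TLR3* (-0.56 with edgeR, -0.0216 upper quartile). They also turned for *OAS2* in KYSE150 minus TE6 (2.21 with edgeR, 2.605 with that pseudocount, adjusted p = 0.026 by limma), and with upper quartile scaling in TE6 siTP63 minus siBRDT for *OAS3* (-0.0726), *DDX58* (-0.0839), *DHX58* (-0.0816), *EIF2AK2* (-0.0869) and *ADAR* (-0.0844). Leaving out 1 library gave 0 to 1 members and 1483 to 2707 genes down in TE6 siBRDT. In KYSE150 siTP63 it gave 0 to 2 members up, 108 to 182 genes up and 77 to 177 down, and in BRDT-OE 0 to 1 members up and 3 to 6 down. It gave 4 to 6 members for TE6 minus KYSE180, 3 to 7 for KYSE150 minus KYSE180 and 0 to 3 for KYSE150 minus TE6 (siTP63). *EIF2AK2* ranged from -0.23 to 0.0293 (KYSE180 siBRDT), -0.0192 to 0.10 (TE6 siBRDT), -0.55 to 0.38 (KYSE150 siTP63) and -0.70 to 0.23 (KYSE150 minus TE6). For KYSE150 minus KYSE180 *OASL* ranged from -0.82 to 0.70, *DDX58* from -0.15 to 0.0522 and *TLR3* from -1.58 to 1.80. For KYSE150 minus TE6 *OAS2* ranged from -0.43 to 0.0343, *IFIH1* from -0.67 to 0.22 and *TLR3* from -0.23 to 3.15, and for TE6 siTP63 minus siBRDT *OAS3* from -0.0585 to 0.30 and *DHX58* from -0.0033 to 0.23. The causes were not tested. Depth limits *OAS2*, *DHX58* and *TLR3* in KYSE150 and *TLR3* in TE6, with few reads per library.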

Other observations

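*OASL*, the chemokine gene *CCL5* and the interferon-stimulated gene *IFIT2* were set side by side after their values were seen. In TE6 siBRDT their log2 fold changes were 3.005, 2.73 and 2.48, whereas in TE6 siTP63, against the same controls, they were 0.07, 0.17 (limma adjusted p = 0.64) and -0.48 (adjusted p = 0.025). In KYSE180 they were 0.07, 0.30 and 0.86 with siBRDT and 1.23, 1.68 and 2.54 with siTP63. With BRDT-OE in KYSE150 they were -2.81, -4.25 and -3.17. In KYSE150 siTP63 *CCL5* had 5.94 to 24.7 normalised counts in siCont and 214 to 296 in siTP63 (4.24, adjusted p = 0.11).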
